A study of Homo sapiens with 4 samples.

Results

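Isolated shared peaks were chosen from the authors' list of accessible regions (peaks) in control cells by position, width and overlap. A control peak was included if it lay on a nuclear chromosome other than 19, was narrower than 1500 bp, overlapped a peak of the overexpression list by at least 1 bp, and had no other control peak with its midpoint within 50 kb. In all, 2691 peaks met these criteria, of 59797 in the control list. These values of the peak lists chose the members, and the numbers below describe them without a test.

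Accessible chromatin is usually grouped, because an active gene is commonly surrounded by several enhancers and by the promoters of its neighbours. A peak that stands alone in a long stretch of closed chromatin may be the promoter of a lone gene, a distal enhancer or an insulator bound by CTCF, a protein that anchors chromatin loops. ATAC-seq marks all of these alike, since its enzyme, the Tn5 transposase, inserts adapters wherever DNA is exposed. The peak positions are on the T2T-CHM13 assembly. Which gene or element lies at each of them was not analysed here, and no sequence is shown.

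The libraries were made from HEK293T, an established human embryonic kidney cell line, wild type for MORC2. MORC2 is a chromatin ATPase that compacts DNA and acts with the HUSH silencing complex. The control group (2 libraries) received lipofectamine, and the overexpression group (2 libraries) was transfected with MORC2, carried per the methods of the study on a plasmid as a fusion to a green fluorescent protein. Whether an empty plasmid was given with the lipofectamine is not stated in the sources used here. The labels do not say whether the 2 libraries of a group came from separate cultures.

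Each group has 1 deposited peak list, read here as a call on its 2 libraries together, so that no peak value has a replicate error and no comparison of the lists has a replicate check. Total promoter counts ranged from 3734519 to 10255182 per library, and nuclear promoter counts were 0.326 times as many in overexpression as in control. Mitochondrial promoters held 51.9% to 55.6% of these counts in control and 73.8% to 74.7% in overexpression.

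The number of fragments behind each peak could be worked out from the authors' columns. The peak caller MACS gives the fold enrichment at the summit, which is the pileup of fragments over the local background with 1 added to each, and the Poisson p-value of that pileup. Solving both for every nuclear peak gave a whole number of fragments, within 0.01 of a fragment, for 100% of the peaks in each list. The summit pileup is thus the number of sequenced fragments that covered the highest point of the peak, and the background is the number MACS expected there. The background cannot go below a genome-wide floor, which was 2.30 fragments in control and 1.15 in overexpression. Fragments of the mitochondrial genome were in the peak calls, since both lists held mitochondrial peaks, and their part in the height of the floor was not tested.

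In control cells the isolated shared peaks had few fragments around them and a high fold at the summit. Their median summit pileup was 49 fragments (quartiles from 27 to 108.5, range from 9 to 542). The median background was 3.44 fragments, and 771 of them (28.7%) stood on the floor. This share was 22.3% over all control peaks under 1500 bp off chromosome 19. It was 8.60% for other shared peaks and 55.2% for all isolated control peaks. The rule leaves no other control peak within 50 kb, so a low background, and the fold resting on it, are partly built into the choice. The median fold was 10.6 (quartiles from 7.57 to 13.7), against 5.45 over all 54576 control peaks under 1500 bp off chromosome 19. That set includes peaks without an overexpression peak, and the median was 8.74 for other shared peaks and 6.66 for all isolated control peaks. They were 718 bp wide at the median, with the narrowest at 206 bp. The summit lay in the central 50% of the width in 2233 of them (83.0%), and in 82.5% of the other shared peaks.

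The medians of fold and pileup ran in opposite ways across classes of peaks by number of neighbours. Within the isolated shared peaks the median fold was higher with more fragments, at 5.14 with up to 20 and 15.0 with over 150. Among shared control peaks of the same width limit, the median pileup was 49 fragments with no neighbour within 50 kb, 53 with 1 to 2 neighbours, 58 with 3 to 5, 69 with 6 to 9 and 76 with 10 or more. The median background was 3.44, 4.34, 5.69, 8.01 and 11.2 fragments in the same order. The median fold was 10.6, 9.99, 8.76, 7.71 and 6.16 in that order. Isolated shared peaks therefore had the lowest pileup and the highest fold of the 5 classes. The share of peaks on the floor was 28.7%, 16.3%, 7.37%, 1.84% and 0.649% in the same order. The widths hardly moved, with medians between 700.0 and 736 bp. The quartiles of neighbouring classes overlapped for all of these quantities.

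**Figure D1:**
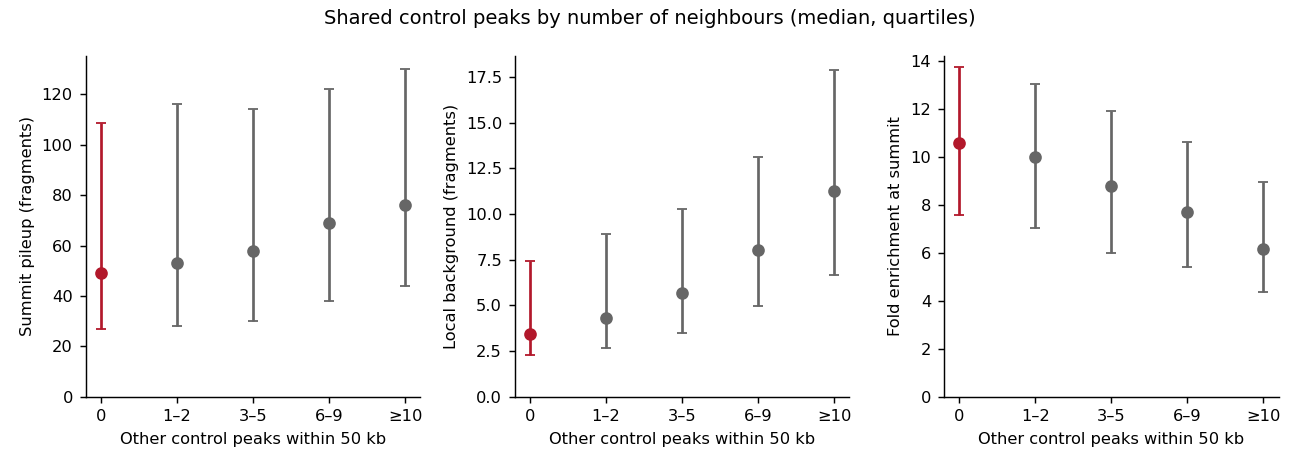
Median summit pileup, local background and fold enrichment (points, with bars from the lower to the upper quartile) of shared control peaks, by the number of other control peaks within 50 kb, with isolated shared peaks in red. From left to right in each panel the pileup goes from 49 to 76 fragments and the background from 3.44 to 11.2, while the fold goes from 10.6 to 6.16.

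The same difference was present among peaks with like pileup. With 41 to 60 fragments at the summit, the 397 isolated shared peaks had a median background of 3.31 and a median fold of 11.6, whereas the 3889 other shared peaks had 4.89 and 8.62. With over 150 fragments, the medians were 13.3 and 15.0 for 437 isolated shared peaks, and 15.9 and 13.2 for 4081 others. With up to 20 fragments, both classes were near the floor, at 2.30 and 2.43, and the folds were 5.14 and 4.54. MACS takes as background the larger of a genome-wide level and the level in a window around the peak. The number of neighbours comes from the same list, so it is not independent of this background. The authors' −log10 p, which weighs pileup and background together, had medians of 38.6 for isolated and 37.9 for other shared peaks.

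The distances to other peaks were uneven. The nearest control peak was 77.8 kb away at the median, with quartiles at 60.7 and 112.4 kb, and the gap on the other side had a median of 156.3 kb. Only 224 members (8.32%) were over 200 kb from any control peak, and 33 (1.23%) over 500 kb. The nearest control peak was itself an isolated shared peak for 602 members (22.4%). Of the 2691, 1577 had no other member next to them in the control list, 744 were in runs of 2 and 370 in runs of 3 or more, up to 5 in a row. Members made up 4.50% of all nuclear control peaks, a lower share than the 22.4% that had a member as nearest peak. For a further 588 members (21.9%) the nearest was an isolated control peak without an overexpression peak. Peaks in the same sparse stretch can all meet the rule, and no test was made of this.

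Members farther from other peaks had fewer fragments. Those 50 to 75 kb from the nearest control peak had a median pileup of 55 and a background of 4.10 fragments. Those at 200 to 500 kb had 37 and 2.50, and 43.5% of them stood on the floor, against 23.6% of the nearest class. The median fold moved less, from 10.8 to 9.91.

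The isolated shared peaks made up different parts of the control peaks of each chromosome. The share was 8.62% on chromosome 4 (210 of 2435), 8.21% on chromosome 18 and 7.86% on chromosome 8. It was 2.25% on chromosome 16, 2.19% on chromosome 17 and 1.35% on chromosome 22 (19 of 1410). Chromosome 1 had the most control peaks (6902) and 184 members (2.67%). Chromosomes 16, 17 and 22 are known to be dense in genes, and chromosomes 4 and 18 are known to be poor in them. The order did not follow this throughout, since chromosomes 13 and 21, which are also poor in genes, had 3.65% and 3.56%, below the 4.50% of all nuclear control peaks. Once a peak was a member its strength differed less by chromosome, with a median fold between 9.73 on chromosome 7 and 11.5 on chromosome 17.

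**Figure D2:**
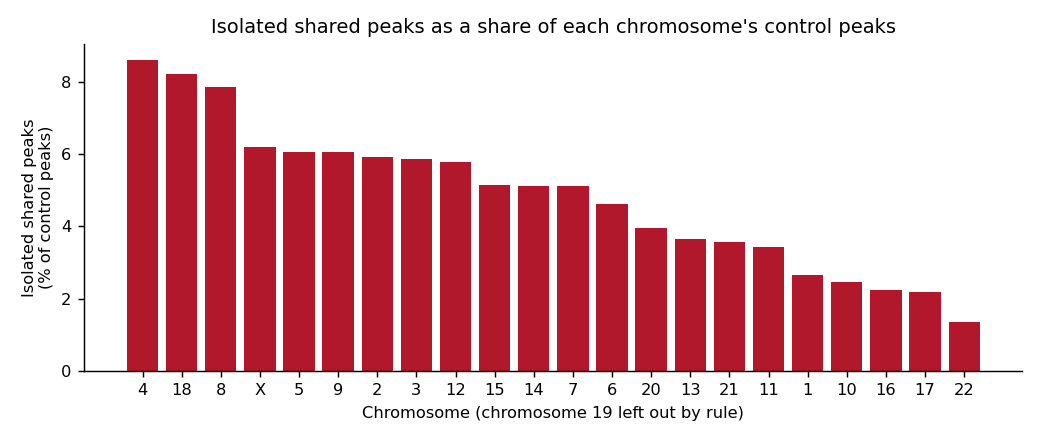
Isolated shared peaks as a percentage of all control peaks of each chromosome (bars), in falling order. The bars run from 8.62% on chromosome 4 to 1.35% on chromosome 22, and chromosome 19 is absent by the rule.

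To ask whether peaks that stand alone are found again after overexpression of MORC2 as often as others, the share with an overlapping overexpression peak was compared. Of 5459 isolated control peaks, 2691 (49.3%, 95% Wilson interval from 48.0% to 50.6%) had one. The share over all 54576 control peaks of the same width and chromosomes was 49.2%, so that the isolated peaks were at the background. All intervals given cover counting error only. Those of shares treat the peaks of a list as separate units, and no replicate enters them. Those of pileups rest on fragments counted without molecular identifiers, which may share a molecule.

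The share followed the strength of the peak. When the control peaks were divided by −log10 p into 10 bins of like size, 4.30% of isolated and 4.27% of other control peaks in the weakest bin had an overexpression peak. In the sixth bin it was 57.7% and 61.2%, and in the strongest 100% and 99.98%. Weighted by the isolated peaks in each bin, the difference, isolated minus other, was −1.21 percentage points (95% interval from −2.19 to −0.23). This difference turned to 0.317 points higher when an overlap had to cover 50% of both peaks, and to 1.45 points higher with peaks at a −log10 q of at least 10, so no direction is drawn from it. The 2768 isolated control peaks that had no overexpression peak had a median of 14 fragments at the summit, and 81.0% of them stood on the floor.

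**Figure D3:**
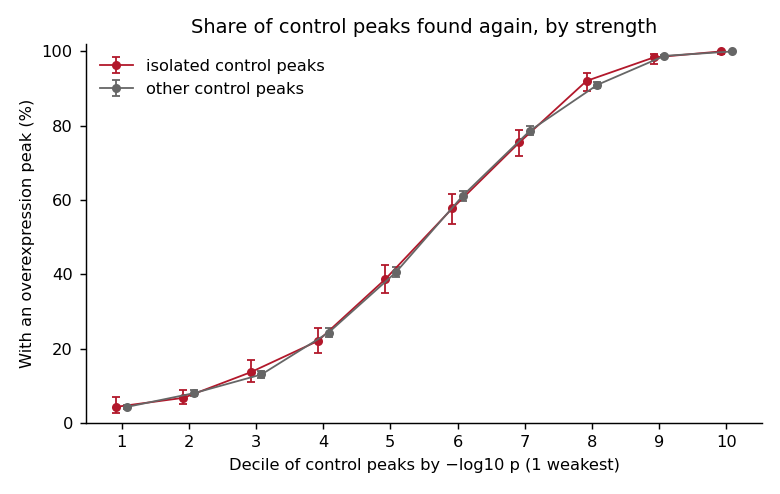
Percentage of control peaks under 1500 bp that overlapped an overexpression peak (points, with 95% Wilson intervals), in 10 bins of like size by −log10 p, for isolated (red) and other (grey) peaks. Both run from about the same share in the weakest bin, 4.30% and 4.27%, to 100% and 99.98% in the strongest.

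Among isolated control peaks the share was lower at greater distances. It was 52.8% at 50 to 75 kb from the nearest control peak, 49.8% at 75 to 100 kb, 46.7% at 100 to 200 kb, 41.3% at 200 to 500 kb and 32.0% (33 of 103) beyond 500 kb. The peaks also became weaker, from a median pileup of 24 to 16 fragments. Given the strength bins of the peaks in each class, the shares over all control peaks would be 53.3%, 50.8%, 48.1%, 43.0% and 39.4%. These lay within the Wilson interval of each class, the last of which ran from 23.8% to 41.6%. The observed share was nevertheless lower than these in every class, and no test was made of this.

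In the overexpression list the matched peaks were shallower. Their median pileup was 19 fragments, and the range was from 6 to 191. The median background was 1.56 fragments, with 830 (30.8%) on the floor, against 9.30% of the overexpression peaks matched to all shared control peaks. The median fold was 7.60, against 6.52 for the overexpression peaks matched to all shared control peaks. The matched peaks of other shared peaks had a fold of 6.40, and those of shared peaks with 10 or more neighbours had 4.93. The order by fold seen in control was thus present in the overexpression list, which was called on other libraries but enters the rule through the overlap. The background of the matched peaks had the reverse order, with a median of 5.03 at shared peaks with 10 or more neighbours. As the matched peaks lie at the same places, chosen by isolation, this order is no independent check.

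Across all 31182 shared nuclear peaks, the overexpression pileup was 0.380 times the control pileup at the median. This ratio served as the zero of the log2 pileup ratio. It lay above the ratio of nuclear promoter counts (0.326) and below the ratio of the floors (0.497), and scaling by these would shift every log2 ratio by 0.22 and −0.39. Relative to the median of all shared peaks, isolated shared peaks had a median log2 pileup ratio of 0.025 (quartiles from −0.22 to 0.34), and other shared peaks had 0.027. Single members spread around their median with an SD of 0.44. These medians are pooled over peaks of all depths, of which the classes hold different mixes.

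**Figure D4:**
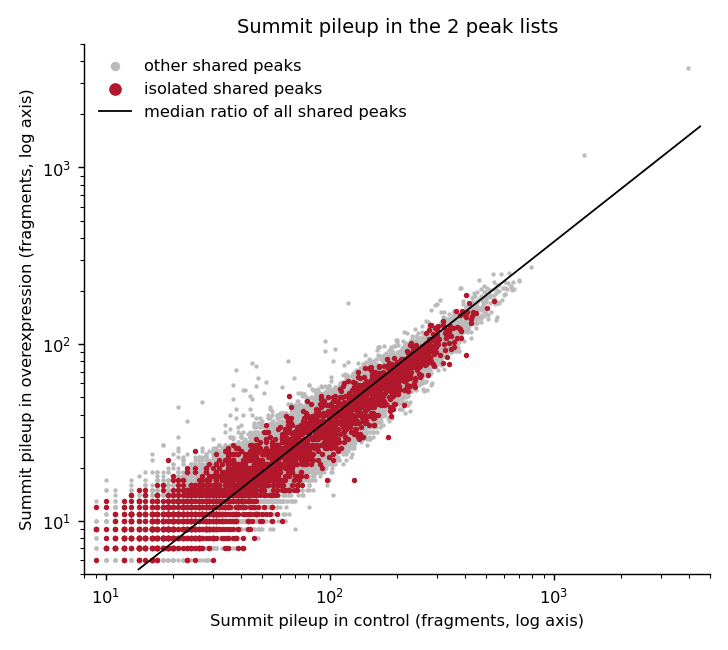
Summit pileup in overexpression against control on log axes, with 1 point per isolated shared peak (red) or other shared peak (grey). The line is the median ratio of all shared peaks (0.380), and the red points lie around it from 9 to 542 control fragments without forming a group of their own.

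The ratio depended on the control pileup in both classes. For isolated shared peaks the median log2 ratio was 0.61 with up to 20 control fragments, 0.20 with 21 to 40, −0.056 with 41 to 60, −0.058 with 61 to 80 and −0.19 with over 150. For other shared peaks it was 0.72, 0.27, 0.039, −0.018 and −0.19. The median of the isolated peaks was thus the lower one in each bin up to 80 fragments. It was the higher one with 81 to 100 fragments (−0.074 against −0.084) and with 101 to 150 (−0.118 against −0.137). No test was made of this. A weak control peak became a member only if an overexpression peak was called there, so the ratios of weak members were bound to be high. The lists also differed in depth, and the part of depth in the trend among strong peaks was not tested.

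**Figure D5:**
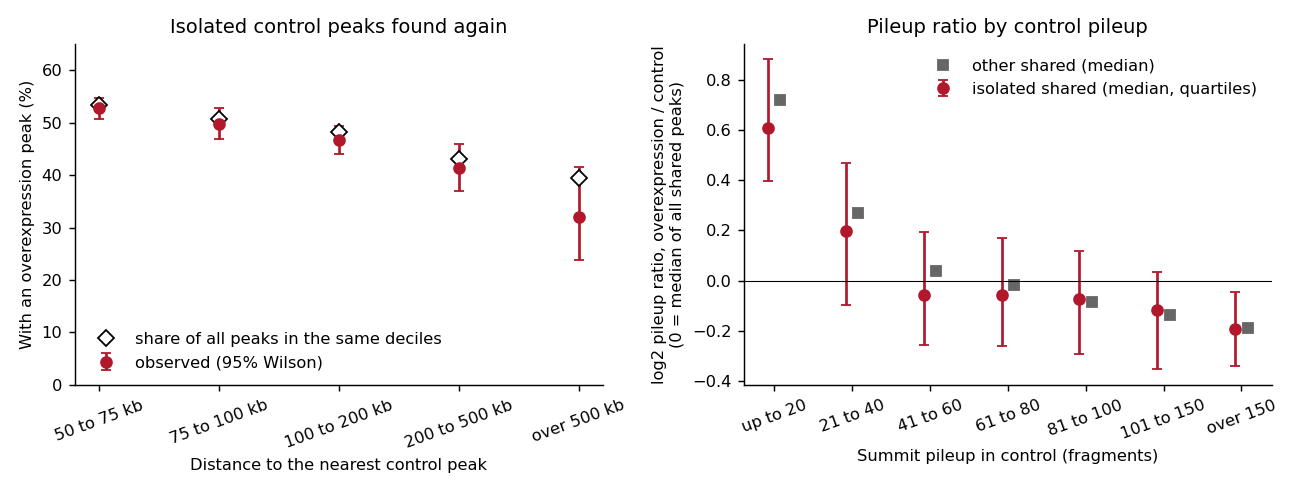
Left, percentage of isolated control peaks with an overexpression peak by distance to the nearest control peak (red, 95% Wilson intervals), with the share of all control peaks in the same strength bins (diamonds). Right, log2 pileup ratio by control pileup for isolated (red, median and quartiles) and other shared peaks (grey squares, median). The left panel goes from 52.8% to 32.0%, and the right panel from 0.61 to −0.19 for isolated shared peaks.

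A pileup at least 2-fold higher in overexpression, relative to the median, was present at 87 isolated shared peaks (3.23%), against 2.6% of all shared nuclear peaks. A pileup at least 2-fold lower was present at 10 (0.372%), against 0.192%. The share of higher pileups was near the background. The share of lower pileups was above it but rests on 10 peaks, and neither count has a replicate check. Weak control peaks were kept only where an overexpression peak was called, so higher pileups are partly built into the rule. Fewer lower than higher pileups is therefore no result about the members. Both counts hold for scaling by the median, and they were not made under the other scalings.

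The rule requires an overlap, so agreement of the matched intervals in position is partly built into it. A single overexpression peak overlapped 2685 of the members, and 6 had more than 1. Of all 31182 shared nuclear peaks, these were 30663 and 519. The overexpression interval was the narrower one for 2056 members (76.4%), with a median width ratio of 0.882, and lay wholly inside the control interval for 1467 (54.5%). Over all shared nuclear peaks these were 79.9%, 0.852 and 57.4%, so that the members were near the background in all 3. The summits of the lists were 45 bp apart at the median (quartiles 7 and 100 bp), as they were over all shared nuclear peaks (45 bp). They were within 50 bp of each other at 1430 members (53.1%) and over 200 bp apart at 233 (8.66%), while for other shared peaks these shares were 54.3% and 10.0%. The control summit lay inside the overexpression peak for 2599 members (96.6%), near the 96.0% of all shared nuclear peaks.

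Most members also stood alone in the overexpression list. Measured from the midpoint of the matched peak, no other overexpression peak lay within 50 kb for 2454 members (91.2%). This share was 18.7% for all shared nuclear peaks and 11.4% for other shared peaks. As members have no control peak at that distance, a high share is partly built into the rule. Measured from the midpoint of the control peak, and leaving out any peak that overlapped it, a further overexpression peak lay within 50 kb of 233 members, comprising 250 peaks, of which 248 overlapped no control peak. The latter count follows from the rule, which leaves no control peak at that distance.

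By rank within its list, the matched peak stood lower than the control peak for 2200 members (81.8%), near the 84.5% of all shared nuclear peaks. The median percentile of fold was 81.3 in control and 67.4 in overexpression, and the median difference was −9.68 percentile points. The lists are of unequal length (59797 and 34898 peaks). With equal numbers of top-ranked peaks in both lists, the rule was applied anew and chose 4583 peaks. Their median difference was 0.526, which is not a value of the same members. For other shared peaks the median difference was −12.5 with the full lists.

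The strongest members are given with the counting intervals of their pileups (95%, exact Poisson), which leave out biological and library error. The largest fold among the members, 40.6, was on chromosome 21 at chr21:3113876-3114535, 233.3 kb from the nearest control peak. It had 542 fragments (497.3 to 589.6) over a background of 12.4 in control, and 176 (151.0 to 204.0) over 4.92 in overexpression, where its fold was 29.9. The summits were 1 bp apart. Its log2 pileup ratio was −0.23, and the interval of the ratio relative to the median ran from 0.717 to 1.02. Scaled by the floors it ran from 0.548 to 0.775, and by nuclear promoter counts from 0.835 to 1.18, so that whether it included no change depended on the scaling.

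The peak at chr7:76360630-76361185 had a control fold of 28.8 with 157 fragments, and 38 fragments in overexpression. Its pileup ratio relative to the median was 0.637 (0.435 to 0.913), and scaled by nuclear promoter counts its interval ran from 0.506 to 1.06. On the log2 scale it was −0.65, where isolated shared peaks with over 150 control fragments had a median of −0.19 and a lower quartile of −0.34. The peak at chr14:2108896-2109545 had a fold of 27.2 with only 89 fragments, as its background was on the floor, and 32 fragments in overexpression. The peak at chr8:12179238-12180164, 664.3 kb from any other, had a fold of 25.9 with 172 and 51 fragments. The fifth, at chr9:80192502-80193243, had a fold of 24.5 with 124 and 45 fragments. All 5 stayed above the 99th percentile of fold in the overexpression list, the lowest at 99.3.

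The loneliest member was at chr15:4701084-4702037, with 2330.0 kb to the nearest control peak. It was also among the deepest, with 358 fragments in control and 97 in overexpression (ratio relative to the median 0.714, interval from 0.564 to 0.895, or from 0.657 to 1.04 scaled by nuclear promoter counts). The next, at chr9:44295684-44296347, was 1993 kb from its neighbour and had 49 and 10 fragments, with an interval of the relative ratio from 0.243 to 1.07. The third, at chr2:90624809-90625127, was 1331 kb away and had 43 and 13 fragments, with an interval from 0.393 to 1.51. Among these 3, great distance thus went with both deep and shallow peaks. Over all members the median pileup was lower at greater distance, at 55 fragments for 50 to 75 kb and 37 beyond 500 kb. Whether the long gaps hold sequence in which reads cannot be placed was not tested.

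The members with the largest rises in rank were shallow in control, and those with the largest falls were near the median depth there and shallow in overexpression. The largest rise was at chr10:90985289-90985556, with 9 fragments in control and 12 in overexpression, from percentile 6.56 to 49.6. It was followed by chr3:118834365-118834752 with 10 and 13 fragments and by chr3:108245563-108246176 with 14 and 15. The largest falls were at chr9:81709620-81710100 and chr3:194470904-194471250, each with 41 and 7 fragments, and at chr2:189062376-189062744 with 46 and 8. The first of these went from percentile 89.7 to 9.63, and the interval of its ratio relative to the median ran from 0.170 to 1.01, or from 0.130 to 0.773 scaled by the floors.

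By pileup, a choice made after the values were seen, the largest fall was deeper. The peak at chr3:157098266-157099044 had 128 fragments (106.8 to 152.2) in control and 17 (9.90 to 27.2) in overexpression. Its background was 8.24 and 2.14 fragments, and its fold 13.97 and 5.73. The log2 pileup ratio was −1.52, and the relative ratio was 0.350 (0.198 to 0.582). The peak at chr6:25144416-25145651 had 181 and 30 fragments, with a relative ratio of 0.436 (0.286 to 0.645). The 3 largest rises had at most 10 control fragments each.

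The summits were farthest apart in wide, weak members. They differed by 1001 bp at chr14:87657532-87658876, with 19 and 9 fragments, by 881 bp at chr15:27360929-27362290, with 29 and 15, and by 861 bp at chr7:109464197-109465336, with 25 and 6. These control peaks were between 1140 bp and 1362 bp wide.

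The peaks nearest to the limits of the rule, inside and outside, are given as a description. The widest members, of 1499 bp, at chr7:130746689-130748187 and chrX:54776507-54778005, had 188 and 47 control fragments. Shared isolated peaks of 1500 and 1503 bp, just outside, had 243 and 86. The members nearest to another control peak, at 50.03 and 50.04 kb, had 47 and 55 fragments, and the peaks just outside, both at 49.98 kb, had 147 and 130.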

How the data were processed

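ATAC-seq was performed on 4 libraries of HEK293T cells, 2 of control and 2 of MORC2 overexpression, grouped by their titles. As its methods describe, the authors trimmed reads, aligned them with bowtie2 to T2T-CHM13, kept proper pairs of high mapping quality, removed duplicates with Picard and called peaks with MACS2 in paired-end mode. No shift of read ends for Tn5 was described. The authors deposited 1 peak list per group, with positions and summit offsets (0-based, printed here 1-based), a score, the fold (a ratio over background), −log10 p and −log10 q. The score, 10 times the −log10 q, served for the thresholds on q. The authors also deposited raw counts per promoter for each library, used here for depth and the mitochondrial share only (37 of 28775 promoters were mitochondrial, by Entrez identifier in a RefSeq table of GRCh38.p14).

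Python 3.11.15 was used for overlaps, isolation and ranks, with pandas 2.3.3, and scipy 1.17.1 for the Poisson terms. Where several overexpression peaks overlapped a member, the one with the largest fold was matched. Pileup and background were solved from fold and −log10 p, a step and ratio chosen after the values were seen, and the code was tested on simulated peaks and known intervals. A background within 0.5% of the lowest was taken as on the floor. Regions were named by rule: the 5 with the largest control fold, the 3 farthest from another peak, the 3 largest rises and falls in rank, the 3 largest summit distances and the 2 on each side of each limit. Alternatives covered distance, overlap, peak threshold, width, chromosome 19 and scaling. The members, classes and rules were chosen with earlier results of these data known. Genes at the peaks, promoter tests at the peaks and sequence features were not analysed here, for want of an annotation and genome of the build used.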

Additional observations from a re-analysis of the deposited data

How the results depend on the processing

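No paired analysis was possible because each group has 1 pooled list without replicate numbers and no result comes from a test; for the same reason no replicate could be left out. The planned promoter tests were not run. Of 101 alternative values, 55 stayed within the interval of the reported one (for the number of peaks, within 1.5 times) and 4 changed sign. Except where the setting itself selects peaks, the cause was not tested. The scalings were added after seeing the data.

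With an isolation distance of 25 kb, 6192 peaks were chosen, 50.8% of isolated control peaks had an overexpression peak, the median pileup was 53.5 and the background 3.96. With 100 kb the values were 857 peaks, 44.6%, a pileup of 42 and a background of 2.93, with an overexpression fold of 7.20, a rank difference of −10.7 and a log2 pileup ratio of 0.050. With an overlap of 50% of both peaks the share was 44.8%, the folds 11.01 in control and 7.92 in overexpression, the width ratio 0.891, the rank difference −8.59, the strength-matched difference 0.317, the pileup 54 and the background 3.72.

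With a −log10 q of at least 5 the share was 51.7%, the folds 11.5 and 8.39, the summit distance 38 bp, the pileup 65 and the background 4.72. With at least 10 these were 51.85%, 12.6 and 9.40, 33 bp, 96 and 6.80, with a width ratio of 0.895 and a strength-matched difference of 1.45. Equal numbers of top-ranked peaks gave 4583 peaks, 76.3%, a width ratio of 0.872, a rank difference of 0.526, 39 bp, a pileup of 57 and a background of 4.31. Without a width limit the share was 51.75%, the pileup 55.5, the background 3.94 and the log2 ratio 0.0031. Scaled by the floors the log2 ratio was −0.36, and by nuclear promoter counts 0.24. Isolation in both lists and chromosome 19 moved none. Weak peaks rest on 6 to 20 fragments, so single ratios there are imprecise.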

Other observations

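On the acrocentric chromosomes 13, 14, 15, 21 and 22, whose short arms hold ribosomal DNA and other repeated sequence, 7 isolated shared peaks lay within the first 5 Mb, a stretch chosen after the values were seen. They were 1 on chromosome 14, 1 on chromosome 15, 1 on chromosome 21 and 4 on chromosome 22, and chromosome 13 had none. They included the member with the largest fold and the one farthest from any other peak. Their control folds ran from 13.3 to 40.6 and their summit pileups from 43 to 542 fragments, against medians of 10.6 and 49 over all members. The log2 pileup ratios lay between −0.70 and 0.023. At chr22:4310407-4310880 the pileup was 90 fragments in control and 21 in overexpression. How far reads of these arms can be told apart between chromosomes was not tested.

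Isolated control peaks of chromosome 15 had an overexpression peak in 63.4% of cases (97 of 153, Wilson interval from 55.5% to 70.6%), and those of chromosome 10 in 37.7% (86 of 228, from 31.7% to 44.2%). Given the strength of these peaks, the shares over all control peaks would be 59.7% and 41.4%, both within the intervals.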
